A study of Gossypium hirsutum with 120 samples.

Results

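The genes described here encode the enzymes that make the C5 building blocks of isoprenoids in upland cotton, by the cytosolic mevalonate pathway and by the plastid methylerythritol phosphate (MEP) pathway, with the prenyl diphosphate synthases that join those units. Members were all entries of the expression table whose best Arabidopsis match is one of 18 listed Arabidopsis genes. The rule took 71 of 49663 entries, which belong to 62 of 44598 cotton genes. Of the 18 Arabidopsis genes, 16 had an entry. The isopentenyl diphosphate isomerases IPP1 (AT5G16440) and IPP2 (AT3G02780), which interconvert the C5 units, were the matches of no entry and have no value here. Cotton is an allotetraploid and most steps are encoded by several genes, so each step is given first as the sum over its cotton entries and then by cotton gene. The mevalonate steps hold 30 of the 62 genes, the MEP steps 20, farnesyl diphosphate synthase 4 and geranylgeranyl diphosphate synthase 8.

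Plants build isoprenoids from isopentenyl diphosphate and dimethylallyl diphosphate. The mevalonate route condenses acetyl-CoA in the cytosol and feeds sterols and sesquiterpenes, for which farnesyl diphosphate synthase makes the substrate, while the MEP route starts from pyruvate and glyceraldehyde phosphate in the plastid and feeds carotenoids, the side chains of chlorophyll and tocopherol, and gibberellins through geranylgeranyl diphosphate. In cotton, sesquiterpenes include gossypol and related aldehydes, which are stored in pigment glands and whose first committed enzyme is cadinene synthase.

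RNA of nectaries of *Gossypium hirsutum* TM-1 and of the non-nectary tissue beside each was sequenced, with several nectaries pooled per RNA sample, from chamber-grown plants of this 1 cultivar after their first bloom. Floral nectaries were taken before secretion (2 RNA samples, against 3 of control tissue), while secreting (3 against 3) and after secretion (3 against 3). Bracteal nectaries were taken before (2 against 2) and after secretion (3 against 3), circumbracteal nectaries before and after (3 against 3 each), and foliar nectaries before (2 against 2), while secreting (1 against 1) and after secretion (3 against 3). The paper took the floral stages within a day of anthesis. It took bracteal and circumbracteal nectaries from the square (flower bud) stage to weeks after anthesis, and foliar nectaries by leaf size and maturity. The stages therefore span unlike intervals in the different types. A later stage of the nectary is also a later age of its organ, and the 2 cannot be told apart. The secretory samples of bracteal and circumbracteal nectaries, and further foliar secretory samples of nectary and control, belong to a second sequencing set that was not analysed here. Values are normalized signal, that is the deposited value divided by an upper-quartile factor of its library, and levels are compared only between samples, never between genes of different length.

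Summed signal per RNA sample lay between 7489375 and 16203450, and the 2 sequencing runs of a sample correlated at 0.9313 or more across entries. Circumbracteal nectary libraries stood apart, with 30965 entries above 0 in pre-secretory replicate 3, and 36269 and 34819 in post-secretory replicates 1 and 2, against 37605 to 48112 in all other libraries. Pre-secretory circumbracteal nectary replicates correlated at 0.7664 to 0.8342 and post-secretory ones at 0.8216 to 0.8578, against 0.8303 or more in every other group. CWINV4, the cell wall invertase of nectaries, averaged 51040 in pre-secretory floral nectaries, against 163 in control tissue, and its mean was higher in nectary than in control in every type and stage sampled. SWEET9, the sucrose exporter, averaged 46.7 in pre-secretory, 290 in secretory and 6.47 in post-secretory floral nectaries. It was listed at 0 in every analysed sample of the 3 other nectary types and their control tissue, which include no bracteal or circumbracteal secretory sample. For the secretory stage, the paper places SWEET9 expression above that of CWINV4 in all nectary types but the floral one. It also measured SWEET9 by RT-qPCR in bracteal nectaries. Outside the floral set, the samples analysed here hold that stage only as a single foliar nectary and its control. The zeros of bracteal and circumbracteal nectaries are from other stages and cannot be set against the paper's secretory comparison. The source of the SWEET9 zeros was not tested. CRC, a regulator of nectary formation in Arabidopsis, averaged under its control in floral nectaries at each stage, with 0.933, 0.895 and 1.78, against 3.83, 4.52 and 17.4. The samples are bulk tissue, so fewer cells of a type and less RNA per cell cannot be told apart. Nothing states that replicates came from separate plants, so p-values measure the spread between these RNA samples.

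The balance between the pathways lay further to the plastid side after secretion than before it in all 4 nectary types. It is measured here as the mean log2 signal of the 6 mevalonate steps minus that of the 7 plastid steps in each RNA sample, a summary chosen after the values were seen. In floral nectaries it was -0.0195 and -0.0682 before secretion, -0.86, -0.49 and -0.54 during secretion and -1.24, -0.89 and -0.89 after it. The 3 floral stages did not overlap. In bracteal nectaries it was -0.80, -0.34 and -0.52 after secretion, against -0.0232 and -0.26 before. In circumbracteal nectaries it was -0.36, -0.205 and -0.76 after secretion, against 0.49, -0.0478 and 0.12 before. Foliar nectaries were at 0.59 and 0.46 before secretion, at -0.33 in the single secretory sample, and at -0.12, -0.49 and -0.35 after secretion. Post-secretory and pre-secretory nectary samples overlapped in no type. The control mean also lay further to the plastid side after secretion in all 4 types. In control tissue the stages did not overlap in the bracteal and circumbracteal sets, with -0.72 to -1.31 after secretion against -0.30 to -0.68 before, and -0.89 to -1.16 against -0.15 to -0.84. They overlapped in the floral and foliar sets, where the control means were -0.74 after secretion against -0.34 before, and -0.32 against -0.17. Whether this balance changed more in nectary than in control was not tested.

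**Figure D1:**
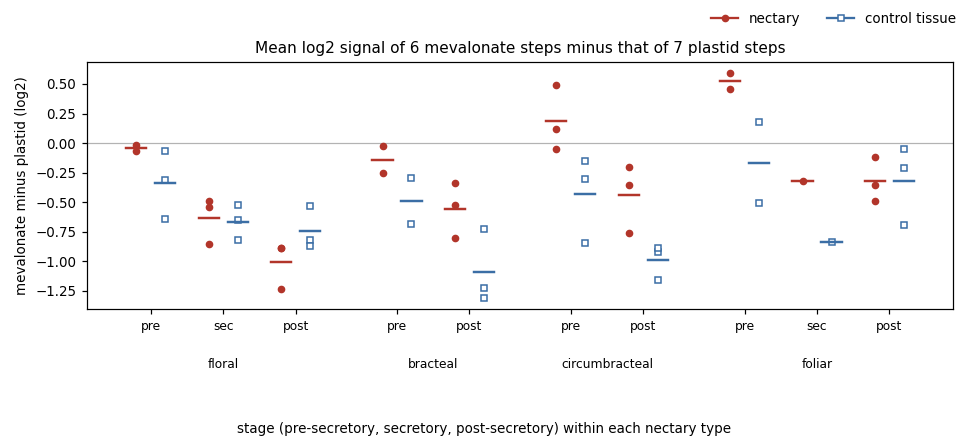
Mean log2 normalized signal of the 6 mevalonate steps minus that of the 7 plastid steps (vertical axis, log2 units) in each RNA sample, by nectary type and stage. Filled circles are nectaries, open squares control tissue and bars group means; the pre-secretory nectary samples lie above the post-secretory ones in each type, with foliar nectaries at 0.59 and 0.46 before secretion.

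Over development, most called mevalonate genes were lower after secretion and all called MEP genes were higher. Calls of either were few, and some shares lay near those of all genes. The difference between the pathways was not tested. A gene was called at a limma adjusted p (Benjamini-Hochberg over all cotton genes tested) under 0.05 where it also changed by 1.5-fold or more, and all 62 members passed the filter on low values. Of the 62, 32 were called in at least 1 of the 19 comparisons and 30 in none. In floral nectaries, post-secretory against pre-secretory, 10 of 62 members were called (16.1%, against 8.39% of all genes). Among them were 5 of 30 mevalonate genes, all lower (16.7%, against 3.45% of all genes). The 3 of 20 MEP genes called were all higher (15%, against 4.93%). The count of 10 became 3 without pre-secretory floral nectary replicate 1 and 6 without replicate 2. In foliar nectaries 11 of 62 were called (17.7%, against 13.8%). Among them were 6 mevalonate genes lower (20%, against 9.53% of all genes) and 1 higher. The 1 MEP gene called was higher (5%, near the 4.28% of all genes). The count of 11 was 3 without pre-secretory foliar nectary replicate 1. In circumbracteal nectaries 13 of 62 were called (21.0%, against 23.8%), a share near the background. Among them were 4 mevalonate genes lower (13.3%, near the 11.0% of all genes) and 1 higher. The 2 MEP genes called were higher (10%, against 12.7%). The count of 13 was 3 with only the samples compared in the fit. It was 15 without pre-secretory replicate 3, and 12 and 11 without post-secretory replicates 1 and 2, the libraries with the fewest entries above 0. Bracteal nectaries gave 0 calls by limma (5.24% of all genes), with 6 members at an unadjusted p under 0.05, and 1 call without pre-secretory replicate 2 or post-secretory replicate 1.

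The median log2 change of mevalonate genes, post-secretory minus pre-secretory, was -0.50 in floral, -0.32 in bracteal, -0.40 in circumbracteal and -0.25 in foliar nectaries. For MEP genes it was 0.09 in floral, 0.08 in bracteal, 0.22 in circumbracteal and -0.15 in foliar nectaries, and over all genes it was between -0.01 and 0.08. The same direction of the group means in nectary and control of all 4 types, 8 series in all, was found for 5 mevalonate genes, each lower after secretion, and for 5 MEP genes, 4 higher and 1 lower. Of all 44237 genes tested, 7.34% were higher and 8.18% lower in all 8 series.

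Over the single floral transitions, 4 members were called in secretory against pre-secretory nectaries (6.45%, against 5.45% of all genes), and 5 in post-secretory against secretory nectaries (8.06%, against 4.60%). The first count was 0 without pre-secretory nectary replicate 1 and 2 with only the samples compared in the fit, where the second was 0 by limma. The second count was also 0 without secretory nectary replicate 2, 2 without post-secretory replicate 1 and 1 without post-secretory replicate 3.

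Acetyl-CoA acetyltransferase (AACT2, AT5G48230), which makes acetoacetyl-CoA at the start of the mevalonate route, fell in floral, circumbracteal and foliar nectaries. In floral nectaries the AACT2 sum was 1570 and 1667 before secretion, 1392, 1881 and 1030 during secretion and 516, 603 and 488 after it. The post-secretory samples lay below all others, and secretory and pre-secretory samples overlapped. The log2 change was -1.60 ± 0.34 (SE) from the pre-secretory stage to the post-secretory stage (limma adjusted p = 0.00109), a call that held under every alternative tried, and -1.38 ± 0.31 from secretory to post-secretory (limma adjusted p = 0.00285, 0.059 without secretory replicate 2 and 0.0885 with only the samples compared in the fit).

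In foliar nectaries AACT2 was at 513, 477 and 438 after secretion, against 1652 and 1198 before, and the groups did not overlap (log2 change -1.56 ± 0.34, limma adjusted p = 0.00105). Leaving out pre-secretory foliar replicate 1 gave an adjusted p of 0.0637. Circumbracteal nectaries had 1026, 554 and 417 after secretion, against 1278, 1995 and 917 before, so the groups overlapped, with a change of -1.10 ± 0.31 (limma adjusted p = 0.00667, 0.0658 without pre-secretory replicate 2 and 0.0715 without post-secretory replicate 3). The bracteal samples were at 786, 462 and 363, against 652 and 828, and that change did not pass the test.

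Against the tissue beside it, AACT2 was higher in secretory floral nectaries. It was at 1392, 1881 and 1030, against 586, 643 and 658 in control tissue, and the groups did not overlap (log2 difference 1.15 ± 0.31, limma adjusted p = 0.0083, and 0.0842 without secretory nectary replicate 2). Both AACT2 genes were called here: LOC107924144 averaged 899 in secretory nectaries, against 374 in control, and LOC107912464 averaged 588, against 251. The AACT2 change over floral development differed from that of the control by -0.62 ± 0.46, which did not pass the test (limma adjusted p = 0.743). In circumbracteal and foliar tissue the differences of -0.20 ± 0.43 and -1.61 ± 0.48 did not pass it either (limma adjusted p = 0.894 and 0.269). Circumbracteal control tissue had 716, 505 and 529 after secretion, against 1354, 788 and 1176 before.

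**Figure D2:**
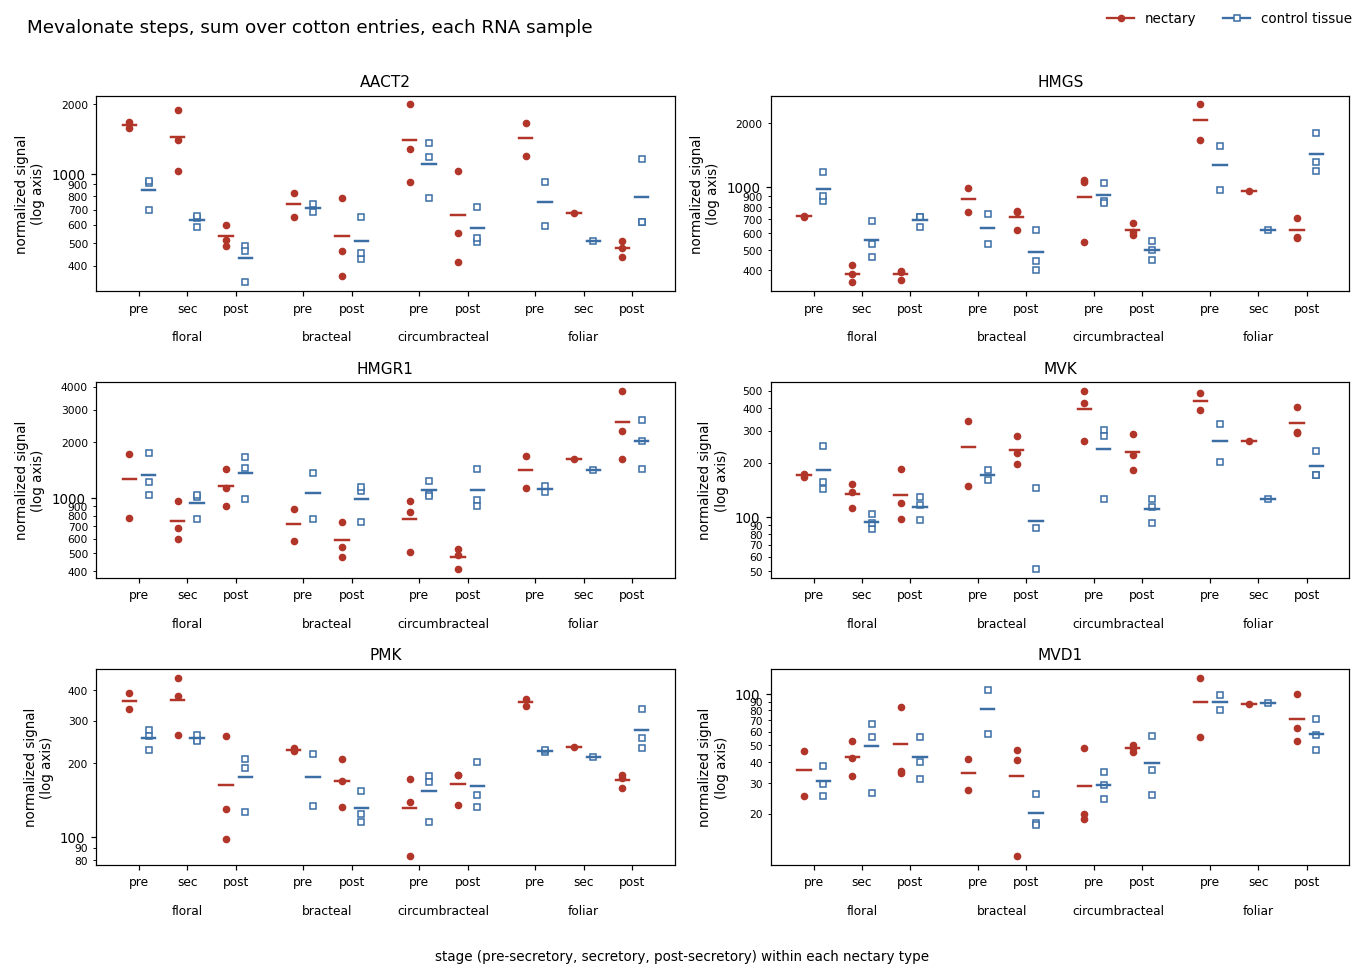
Normalized signal (log axis) of the 6 mevalonate steps, each summed over its cotton entries, in every RNA sample by nectary type and stage. Filled circles are nectaries, open squares control tissue and bars group means; AACT2 in post-secretory floral nectaries sits between 488 and 603, below every earlier floral nectary sample.

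Hydroxymethylglutaryl-CoA synthase (HMGS, AT4G11820), the enzyme that adds the third acetyl unit, fell most in foliar nectaries. Its sum was 571, 712 and 579 after secretion, against 2458 and 1675 before, with 958 in the secretory sample. The change of -1.72 ± 0.25 (limma adjusted p = 6.99e-06) held under every alternative. Foliar control tissue had 1193, 1797 and 1312 after secretion, against 1565 and 965 before. The post-secretory nectary was therefore below its control, with a difference of -1.19 ± 0.23 (limma adjusted p = 0.000961, kept under every alternative), and the 2 changes differed by -1.91 ± 0.36 (limma adjusted p = 0.0118). The last value was 0.199 without pre-secretory nectary replicate 1, 0.203 without pre-secretory control replicate 3 and 0.055 without post-secretory control replicate 2.

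In floral nectaries HMGS was at 718 and 728 before secretion, 422, 384 and 351 during secretion and 359, 391 and 399 after it. The pre-secretory samples lay apart from both later stages (-0.91 ± 0.25 to the secretory stage, limma adjusted p = 0.0162, and -0.92 ± 0.25 to the post-secretory stage, adjusted p = 0.0113). Neither call held without a pre-secretory replicate: adjusted p was 0.142 and 0.0985 without replicate 1, and 0.0762 and 0.0626 without replicate 2. After secretion floral nectaries, at 359, 391 and 399, were also below control tissue, at 644, 715 and 721 (-0.85 ± 0.23, limma adjusted p = 0.0156). That value was 0.0563, 0.0534, 0.0591 and 0.059 when nectary replicate 1, nectary replicate 2, control replicate 2 and control replicate 3 were left out.

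The 9 HMGS genes were not all called in the same comparisons. LOC107946991 fell in 3 types: it was at 27.6, 92.3 and 34.5 in post-secretory foliar nectaries, against 773 and 460 before secretion (log2 change -3.71 ± 0.58, limma adjusted p = 2.09e-05, kept under every alternative). Its change was -2.01 ± 0.58 in floral nectaries (limma adjusted p = 0.0218, 0.158 without pre-secretory replicate 1, 0.111 without replicate 2, 0.0688 without post-secretory replicate 1 and 0.0616 without post-secretory replicate 3). In circumbracteal nectaries it was -1.66 ± 0.51 (limma adjusted p = 0.0161, 0.06 without pre-secretory replicate 2 and 0.0829 without post-secretory replicate 2). The group mean of this gene was lower after than before secretion in all 8 series, control tissue included. Its nectary change did not differ from the control change in a called way in any type.

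LOC107929285, the HMGS gene with the highest mean, had the foliar difference from control: it was at 178, 221 and 144 in post-secretory foliar nectaries, against 647, 1007 and 631 in control tissue (-2.05 ± 0.33, limma adjusted p = 9.09e-05, kept under every alternative). In foliar tissue its nectary values before secretion were 413 and 285, and its control values then were 347 and 251, so its highest values were those of post-secretory foliar control tissue.

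One HMGS gene was higher in nectary than in control tissue in 3 nectary types. LOC107929989 was at 293, 250 and 160 in post-secretory bracteal nectaries, against 12.3, 29 and 7.96 in control tissue, with no overlap (log2 difference 3.90 ± 0.68, limma adjusted p = 0.000438, kept under every alternative). Post-secretory circumbracteal nectaries had 137, 182 and 73.8, against 21.8, 14.6 and 31 in control (2.46 ± 0.68, limma adjusted p = 0.022, and 0.0674, 0.106 and 0.103 without nectary replicate 1, nectary replicate 2 and control replicate 2). Pre-secretory floral nectaries had 123 and 48.5, against 21.8, 9.32 and 6.05 (2.73 ± 0.76, limma adjusted p = 0.0164). That call was lost without nectary replicate 1 (0.328), control replicate 2 (0.0551) or control replicate 3 (0.0754), and in floral nectaries after secretion the gene was at 4.7, 10.2 and 8.39.

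HMG-CoA reductase (HMGR1, AT1G76490), the step at which flux through the mevalonate route is known to be controlled, had 13 cotton genes and showed no common fall. Its sum was 3776, 1613 and 2296 in post-secretory foliar nectaries, against 1134 and 1688 before secretion, and 1429, 904 and 1132 in post-secretory floral nectaries, against 779 and 1735. Neither change passed the test, and the groups overlapped in both types. Of the 13 genes, 6 lie in 2 runs of neighbours in the RefSeq assembly Gossypium_hirsutum_v2.1, and how reads were divided among near-identical copies is not given in the sources used here. LOC107939227 alone carried 44.7% of the mean sum.

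HMGR1 differed between nectary and control in circumbracteal tissue after secretion. The sum was 527, 411 and 492 in nectaries, against 978, 903 and 1438 in control tissue, without overlap (-1.19 ± 0.32, limma adjusted p = 0.0165, 0.0801 without nectary replicate 2, and 0.12 when control replicate 3 was left out). The gene with the largest difference was LOC107898896, at 10.1, 32.4 and 85.2 in nectaries, against 217, 240 and 556 in control (-3.28 ± 0.60, limma adjusted p = 0.000538, 0.0669 with only the samples compared in the fit). In foliar nectaries LOC107898896 rose, to 619, 208 and 297 after secretion, against 61.8 and 118 before (1.97 ± 0.67, limma adjusted p = 0.043). That call was lost without pre-secretory replicate 1 (0.464), pre-secretory replicate 2 (0.0537), post-secretory replicate 1 (0.179) or post-secretory replicate 3 (0.0729). XP_016715642.1, another reductase gene, was at 82.1, 95.7 and 65.5 in post-secretory circumbracteal nectaries, against 121, 166 and 144 before (-0.82 ± 0.27, limma adjusted p = 0.0225, 0.0775 without pre-secretory replicate 2 and 0.104 without post-secretory replicate 3).

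The 3 enzymes after HMGR1 turn mevalonate into isopentenyl diphosphate. Mevalonate kinase (MVK, AT5G27450) was higher in post-secretory bracteal nectaries, at 196, 281 and 226, than in control tissue, at 145, 86.9 and 51.2 (1.41 ± 0.34, limma adjusted p = 0.0109). Leaving out nectary replicate 2 gave 0.0774 and control replicate 3 gave 0.136. The MVK mean was lower after than before secretion in all 8 series, although none of the 4 nectary changes passed the test.

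Phosphomevalonate kinase (PMK, AT1G31910) fell in floral and foliar nectaries. Its sum was 390 and 336 in pre-secretory floral nectaries, 380, 450 and 263 during secretion and 130, 260 and 97.6 after it, and the last group lay below both others. The change was -1.27 ± 0.32 from the pre-secretory stage (limma adjusted p = 0.00514, 0.0995 without pre-secretory replicate 1 and 0.0553 without post-secretory replicate 3) and -1.25 ± 0.29 from the secretory stage (limma adjusted p = 0.00392, 0.0662 without secretory replicate 2 and 0.0698 without post-secretory replicate 3). Foliar nectaries had 175, 179 and 159 after secretion, against 346 and 370 before (-1.07 ± 0.32, limma adjusted p = 0.0151, 0.114 and 0.0695 without pre-secretory replicates 1 and 2). The decarboxylase MVD1 (AT2G38700), which completes the route, was low, with sums of 11.3 to 124 over all samples, and it was not called in any of the 19 comparisons.

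Deoxyxylulose phosphate synthase (DXS, AT4G15560), the entry enzyme of the MEP route, rose in floral nectaries, where AACT2, HMGS and PMK fell and HMGR1, MVK and MVD1 were not called. The DXS sum was 108 and 142 before secretion, 413, 115 and 294 during secretion and 684, 482 and 548 after it. Post-secretory samples lay above both earlier stages, and secretory replicate 2 lay within the pre-secretory range. The rise was 2.18 ± 0.41 on the log2 scale (limma adjusted p = 0.000209) and held under every alternative. The rise from the secretory stage was 1.23 ± 0.36 (limma adjusted p = 0.0258), and it was lost without secretory replicate 2 (0.416), post-secretory replicate 1 (0.123) or post-secretory replicate 3 (0.0785). Floral control tissue had 431, 301 and 437 before secretion, 211, 289 and 202 during it and 317, 378 and 358 after it.

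The nectary and control changes differed by 2.31 ± 0.54 (limma adjusted p = 0.0224). That value was 0.179, 0.0532, 0.0735 and 0.0524 without pre-secretory nectary replicate 1, pre-secretory control replicate 1, post-secretory nectary replicate 1 and post-secretory control replicate 1. DXS was below control in pre-secretory floral nectaries (-1.62 ± 0.41, limma adjusted p = 0.00454, 0.104 without pre-secretory nectary replicate 1), with 108 and 142 against 431, 301 and 437. In post-secretory circumbracteal nectaries the DXS sum was 298, 181 and 303, against 506, 686 and 575 in control tissue, without overlap (-1.20 ± 0.36, limma adjusted p = 0.0354). That call was lost when nectary replicate 1 (0.0539), nectary replicate 2 (0.188), control replicate 2 (0.138) or control replicate 3 (0.0956) was left out.

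Among the 7 DXS genes, XP_016700779.1 carried 47.3% and LOC107897631 33.5% of the summed mean, and both rose. XP_016700779.1 was at 55 and 73.2 in pre-secretory floral nectaries, 244, 63.4 and 182 in secretory and 455, 315 and 322 in post-secretory nectaries (2.48 ± 0.36 from the pre-secretory to the post-secretory stage, limma adjusted p = 1.07e-05). After secretion it was above its control, at 147, 115 and 133, by 1.45 ± 0.33 (limma adjusted p = 0.00462). LOC107897631 was at 206, 168 and 197 after secretion, against 40 and 39.9 before (2.22 ± 0.43, limma adjusted p = 0.000532). These 3 calls held under every alternative. Light harvesting and Rubisco markers, 7 of 12 with an entry, moved in the same direction in floral nectaries: 6 of the 7 were called higher after secretion, where 7.63% of all Arabidopsis sums were, and their summed signal was 24713, 19304 and 10091, against 1343 and 2393 before. Their part in the DXS rise was not tested.

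A gene described as DXS 2 was lower in nectary than in control tissue. LOC107918523 was at 0, 0.932 and 1.13 in secretory floral nectaries, against 25.2, 90.6 and 64.3 in control tissue (-5.07 ± 1.18 on the log2(value + 1) scale, limma adjusted p = 0.00351, kept under every alternative). It was also called lower in floral nectaries before (7 and 4.75, against 197, 92.2 and 189) and after secretion (3.76, 1.86 and 2.1, against 62.5, 87.8 and 85.7). The same held in post-secretory bracteal nectaries (0, 1.01 and 3.86, against 25.8, 78 and 48.9) and circumbracteal nectaries (0, 1.54 and 0, against 10.9, 63.3 and 25.7), without overlap in any of these 5 comparisons. Limma adjusted p was 0.0244 and 0.0179 in the floral sets, 0.0267 in the bracteal and 0.0205 in the circumbracteal set. Each of these 4 calls was lost without some libraries: pre-secretory floral nectary replicates 1 and 2 and control replicates 1 and 3 (up to 0.141), post-secretory floral nectary replicates 2 and 3 and each control replicate (up to 0.0768), bracteal nectary replicates 1 and 2 and control replicates 2 and 3 (up to 0.142), and circumbracteal nectary replicate 1 and control replicates 2 and 3 (up to 0.113). Foliar nectaries did not share the difference, with 9.22, 26.6 and 0 after secretion, against 0, 4.43 and 4.66 in control.

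**Figure D3:**
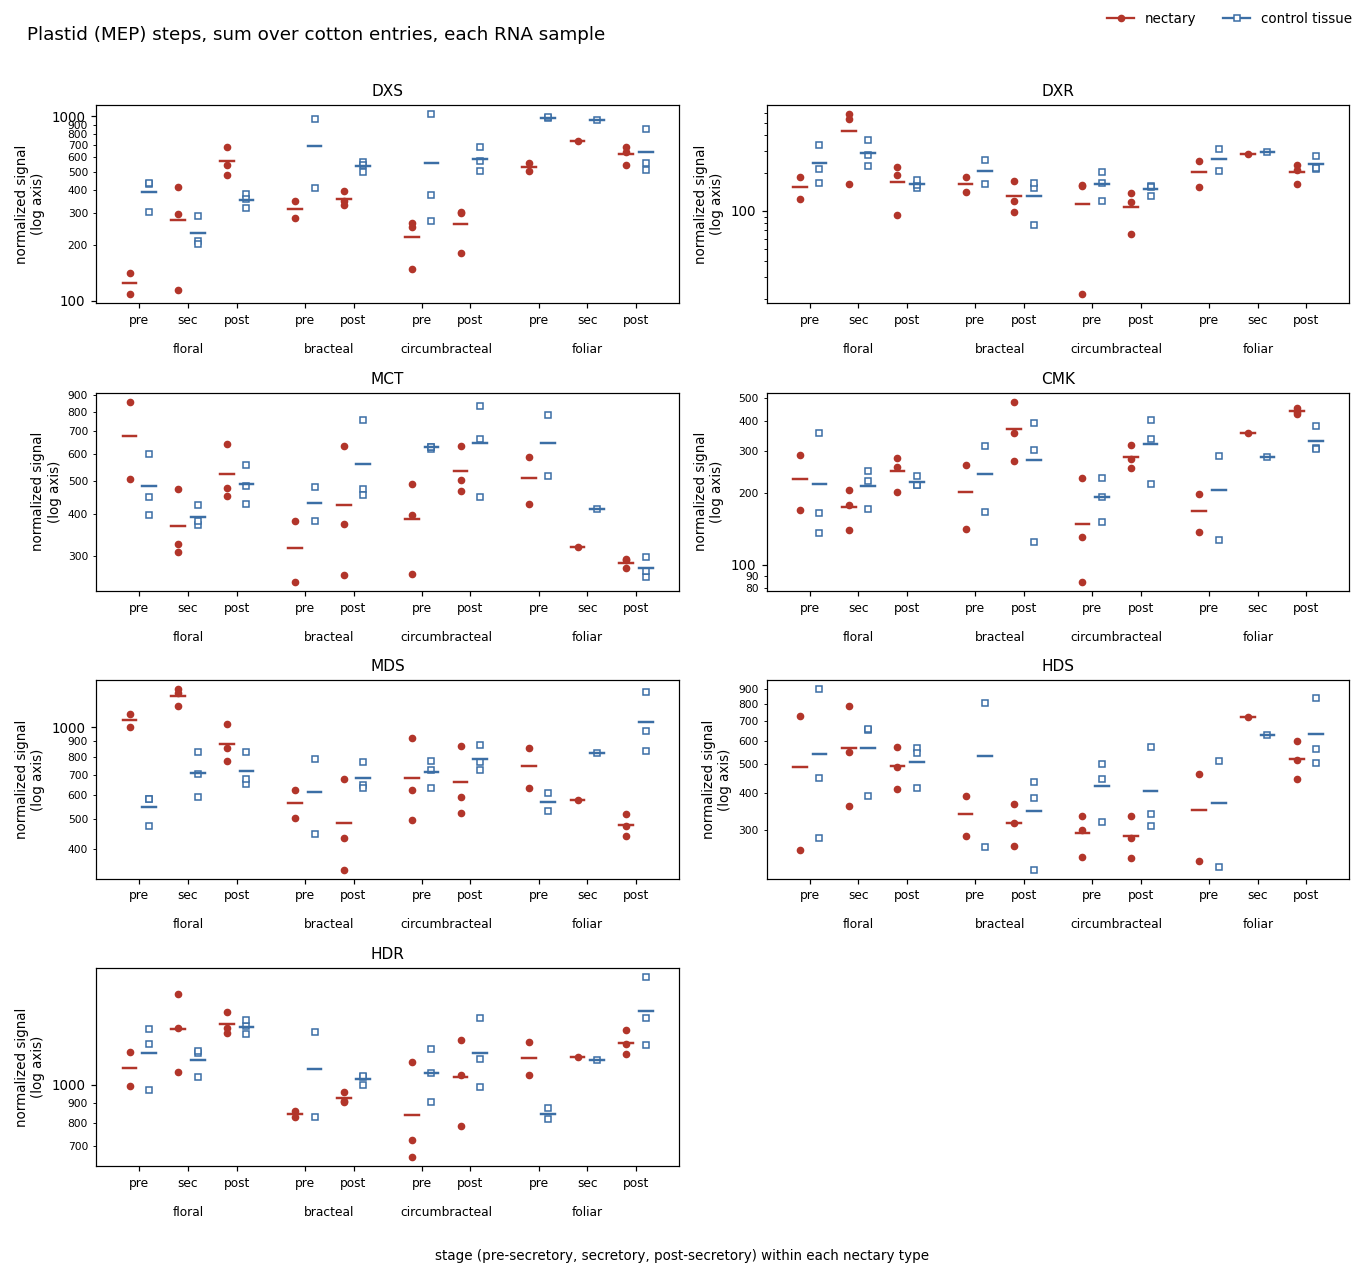
Normalized signal (log axis) of the 7 plastid steps, each summed over its cotton entries, in every RNA sample by nectary type and stage. Filled circles are nectaries, open squares control tissue and bars group means; DXS in floral nectaries is at 108 and 142 before secretion and between 482 and 684 after it.

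Of the middle steps of the MEP route, the sums of CMK (AT2G26930) and MDS (AT1G63970) were called and those of DXR (AT5G62790), MCT (AT2G02500) and HDS (AT5G60600) were not. The kinase CMK rose in foliar nectaries, to 429, 454 and 440 after secretion, against 137 and 199 before (1.41 ± 0.42, limma adjusted p = 0.0154, 0.262 without pre-secretory replicate 1). In circumbracteal nectaries it was at 279, 255 and 320, against 131, 84.9 and 232 (1.04 ± 0.38, limma adjusted p = 0.0386). The circumbracteal call was lost when any 1 of 5 nectary libraries was left out (pre-secretory replicates 1 and 2 and all 3 post-secretory replicates), with adjusted p of 0.0587 to 0.215. LOC107953242 carried most of the CMK signal and rose in both types, by 1.70 ± 0.42 in foliar nectaries (limma adjusted p = 0.00526, 0.117 without pre-secretory replicate 1) and by 1.16 ± 0.38 in circumbracteal nectaries (0.0227, 0.096 without pre-secretory replicate 2 and 0.074 without post-secretory replicate 3). The means of the CMK sum and of LOC107953242 were higher after secretion in all 8 series, control tissue included. The CMK sum in foliar control was 381, 309 and 307 after secretion, against 128 and 285 before. Nectary and control changes of the sum differed by 0.62 ± 0.60 in foliar and 0.33 ± 0.54 in circumbracteal tissue, without passing the test (limma adjusted p = 0.988 and 0.841).

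The cyclodiphosphate synthase MDS separated nectary from control, in opposite directions by type. Pre-secretory floral nectaries had 1100 and 1001, against 582, 584 and 477 in control tissue (0.94 ± 0.26, limma adjusted p = 0.0106, 0.129 without nectary replicate 1). Secretory floral nectaries had 1288, 1167 and 1326, against 705, 591 and 832 (0.84 ± 0.23, limma adjusted p = 0.0117, 0.0836 without control replicate 2). Post-secretory foliar nectaries had 440, 520 and 475, against 837, 973 and 1301 (-1.09 ± 0.23, limma adjusted p = 0.00404, 0.0591 without control replicate 3), and no groups overlapped. LOC107952123 was called in each of these 3 comparisons and LOC107949505 in the foliar one.

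DXR, the reductoisomerase after DXS, reached 590 and 540 in 2 secretory floral nectaries and 163 in the third, against 366, 278 and 227 in control, and the groups overlapped. MCT ranged from 252 to 857 and HDS from 219 to 900 over all samples. HDR (AT4G34350), which releases both C5 units at the end of the route, was at 657 to 1865 and its sum was not called. Its leading gene LOC107886975 nevertheless rose in floral nectaries: it was at 444 and 541 before secretion, 1309, 1116 and 883 during secretion and 1098, 1296 and 938 after it. The change was 1.15 ± 0.26 to the secretory stage (limma adjusted p = 0.00441) and 1.17 ± 0.26 to the post-secretory stage (limma adjusted p = 0.00261), with adjusted p of 0.145 and 0.0944 without pre-secretory replicate 1. Its group mean was higher after than before secretion in all 8 series, control tissue included. The second HDR gene, LOC107894193, with 27.3% of the mean sum, went the other way. Its group mean was lower after than before secretion in 7 of the 8 series.

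Farnesyl diphosphate synthase, which makes the C15 substrate of sterols and sesquiterpenes, had 4 cotton genes in 2 pairs by their descriptions. The synthase 1 pair was called lower in floral and foliar nectaries, and the synthase 2 pair higher in circumbracteal nectaries. XP_016687953.1 (the gene matched to FPS2, AT4G17190, described as synthase 1-like) was at 1755 and 795 in pre-secretory floral nectaries, 137, 177 and 306 in secretory and 164, 169 and 189 in post-secretory nectaries. Foliar nectaries had 1454 and 573 before secretion, 215 in the secretory sample and 109, 80.6 and 83.3 after it. The changes from pre-secretory to post-secretory were -2.76 ± 0.53 in floral (limma adjusted p = 0.000519, 0.0672 without pre-secretory replicate 1) and -3.33 ± 0.53 in foliar nectaries (limma adjusted p = 3.16e-05, kept under every alternative), and that from pre-secretory to secretory floral nectaries was -2.59 ± 0.53 (limma adjusted p = 0.0016, 0.147 without pre-secretory replicate 1).

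LOC107905701 (matched to FPS1, AT5G47770, described as synthase 1) was also called in both types. It was at 76.2, 67.3 and 75.3 in post-secretory foliar nectaries, against 1245 and 600 before (-3.55 ± 0.58, limma adjusted p = 4.12e-05, kept under every alternative). In floral nectaries it was at 635 and 331 before secretion, 52.7, 62.4 and 227 during secretion and 156, 135 and 165 after it. The drop to the secretory stage passed the test (-2.32 ± 0.58, limma adjusted p = 0.0104), and was lost without pre-secretory replicate 1 (0.311), secretory replicate 1 (0.0822) or secretory replicate 2 (0.0551). The drop to the post-secretory stage was not called.

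The other pair, LOC107922380 and XP_016733919.1 (both described as synthase 2-like and matched to FPS1), was called in circumbracteal nectaries alone among the 4 types. LOC107922380 was at 189, 238 and 242 in post-secretory circumbracteal nectaries, against 87.4, 54 and 57.6 before (1.76 ± 0.32, limma adjusted p = 8.61e-05, kept under every alternative). XP_016733919.1 was at 440, 205 and 352, against 125, 124 and 222, with overlap (1.07 ± 0.33, limma adjusted p = 0.017). It lost its call without pre-secretory replicate 1 (0.065) or 2 (0.0656) and without post-secretory replicate 1 (0.1) or 3 (0.0575). Both were higher after than before secretion by their means in all 8 series, and the synthase 1 pair was lower in all 8, and the FPS1 sum, which holds 1 gene of the synthase 1 pair and both of the synthase 2-like pair, was called in none of the 19 comparisons.

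In control tissue XP_016687953.1 had 1200, 707 and 347 in the pre-secretory floral set, 145, 157 and 214 in secretory and 262, 180 and 223 in post-secretory control. Foliar control tissue had 123, 241 and 139 after secretion, against 892 and 437 before. The nectary change did not differ from the control change in a called way for any of the 4 farnesyl synthase genes in any type.

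**Figure D4:**
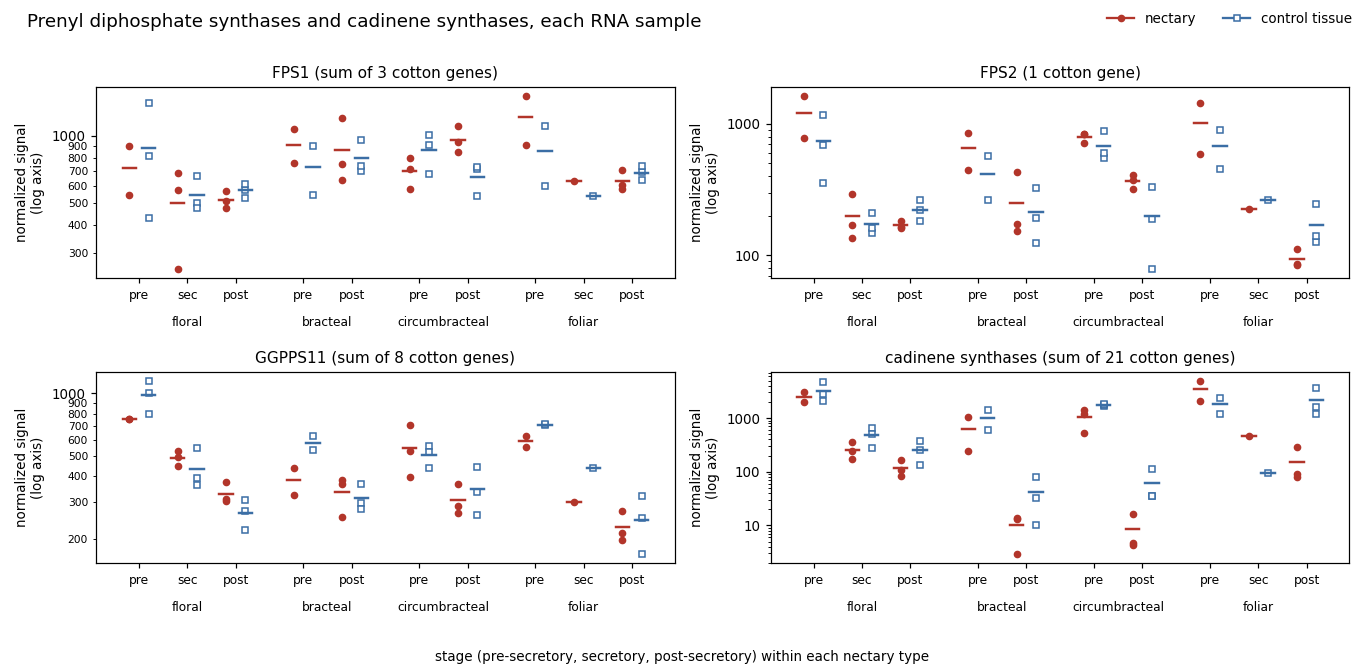
Normalized signal (log axis) of FPS1, FPS2, GGPPS11 and of the cadinene synthases, each summed over its cotton genes, in every RNA sample by nectary type and stage. Filled circles are nectaries, open squares control tissue and bars group means; the 21 cadinene synthase genes sum to 89.7, 288 and 80.6 in post-secretory foliar nectaries, against 1185, 3676 and 1638 in control tissue.

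Cadinene synthases, 21 genes that draw on farnesyl diphosphate, were lower after secretion in the same nectaries. Their summed signal was 3005 and 1966 in pre-secretory floral nectaries, 174, 357 and 244 in secretory and 109, 162 and 85 in post-secretory nectaries. In foliar nectaries it was 89.7, 288 and 80.6 after secretion, against 5007 and 2052 before. Of the 21 genes, 10 fell and 0 rose in floral, 8 fell and 0 rose in bracteal, 11 fell and 0 rose in circumbracteal, and 13 fell and 2 rose in foliar nectaries by limma, post-secretory against pre-secretory, where 3.45%, 3.63%, 11.0% and 9.53% of all genes fell. Control tissue was also lower after secretion outside the leaf: 256, 372 and 135 against 4607, 2796 and 2045 before in floral control, 81.1, 32.3 and 10.2 against 612 and 1400 in bracteal control, and 112, 36.0 and 35.3 against 1685, 1741 and 1827 in circumbracteal control. Limma called 0 of the 21 genes for a difference between the nectary and control changes in these 3 types, with 0, 2 and 0 at an unadjusted p under 0.05. Foliar control tissue had 1185, 3676 and 1638 after secretion, against 2387 and 1207 before, with overlap. Of the 21 genes, 3 changed more in foliar nectary than in control, and 13 of the 21 genes were called lower in post-secretory foliar nectary than in control, as were 0.963% of all genes. The synthase 1 pair had no such difference from foliar control that passed the test.

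Geranylgeranyl diphosphate synthase (GGPPS11, AT4G36810), which makes the C20 unit of plastid isoprenoids, fell in floral, circumbracteal and foliar nectaries. Its sum was 754 and 752 in pre-secretory floral nectaries, 447, 527 and 496 in secretory and 304, 374 and 312 in post-secretory nectaries, with no overlap among the 3 stages. The change was -1.19 ± 0.26 over the whole course (limma adjusted p = 0.00131). Foliar nectaries had 272, 214 and 199 after secretion, against 624 and 555 before (-1.37 ± 0.26, limma adjusted p = 0.000205). Both calls held under every alternative. Circumbracteal nectaries had 289, 366 and 267, against 531, 707 and 396 (-0.80 ± 0.23, limma adjusted p = 0.00991, 0.0805 without pre-secretory replicate 2). In control tissue the sum was lower after secretion in all 4 types, with 272, 307 and 222 in floral control, against 1006, 1152 and 794 before.

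From the pre-secretory to the post-secretory stage, limma called 1 of the 8 GGPPS11 genes lower in floral nectaries (12.5%, against 3.45% of all genes). It called 4 lower in circumbracteal (50%, against 11.0%) and 1 in foliar nectaries (12.5%, near the 9.53% of all genes). LOC107943234, described as the small subunit of a heterodimeric synthase, was at 82.1 and 116 in pre-secretory floral nectaries, 0, 3.73 and 0 in secretory and 0, 0 and 5.25 in post-secretory nectaries. Its fitted changes of -5.88 ± 1.35 (limma adjusted p = 0.00492) and -5.74 ± 1.35 (limma adjusted p = 0.00418) depend on the value of 1 added before the logarithm, and adjusted p was 0.0634 and 0.05 without pre-secretory replicate 1 and 0.0591 and 0.0519 without replicate 2. The highest group mean of LOC107943234, 421, was that of pre-secretory floral control tissue. Its mean was lower after than before secretion in all 8 series, control tissue included. LOC107957430 was listed at 0 in all 3 post-secretory circumbracteal nectaries, against 15.8, 44.8 and 37.8 before secretion. Circumbracteal control tissue had 5.46, 16.6 and 6.42 after secretion. LOC107914300 was at 36, 13.3 and 14.2 in post-secretory foliar nectaries, against 162 and 127 before (-2.85 ± 0.79, limma adjusted p = 0.0122, 0.165 without pre-secretory replicate 1 and 0.051 without post-secretory replicate 2).

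In the comparisons of nectary with control, each share of members called in the main fit is given beside that of all genes. Counts under other settings are of members alone, so a moved count cannot be read as particular to the members. Before secretion floral nectaries had 3 of 62 called (4.84%, against 9.00% of all genes), the HMGS gene LOC107929989, the DXS gene LOC107918523 and the MDS gene LOC107952123. During secretion 4 were called (6.45%, against 9.42%), both AACT2 genes, LOC107918523 and LOC107952123, and after secretion 2 (3.23%, against 4.30%), the DXS genes LOC107918523 and XP_016700779.1. With the replicate number as a block, 9 members were called in secretory floral tissue, where same-numbered samples deviated together. The count before secretion was 0 without nectary replicate 1 or control replicate 3, that during secretion was 1 without control replicate 1 or 2, and that after secretion was 1 without any of nectary replicates 2 and 3 and the 3 control replicates.

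Post-secretory bracteal nectaries had 3 called (4.84%, against 2.81%), LOC107929989, LOC107918523 and the MVK gene LOC107930932, with 5 under the replicate block and 1 without nectary replicate 2 or control replicate 3. Post-secretory circumbracteal nectaries had 5 (8.06%, against 6.82%), LOC107929989, LOC107898896, LOC107918523, LOC107957430 and a further DXS gene, LOC107926260. The last was at 0, 0 and 1.04 in nectaries, against 68.8, 47.7 and 34.2 in control tissue (limma adjusted p = 0.014, 0.0539 without nectary replicate 2). The count became 3 when nectary replicate 2 was left out, 11 for nectary replicate 3 and 2 for control replicate 2. Post-secretory foliar nectaries had 3 (4.84%, against 2.28%), all lower, namely LOC107929285, LOC107949505 and LOC107952123, and 1 without control replicate 3. Pre-secretory circumbracteal nectaries had 1 (1.61%, against 7.20%), the HMGS gene LOC107897938, listed at 0 in all 3 nectary samples, against 2.92, 15.4 and 30.7 in control. Leaving out nectary replicate 1 gave 6 and nectary replicate 2 gave 7, while the 3 control samples left out in turn gave 4, 0 and 2. Pre-secretory bracteal and foliar nectaries gave 0 calls by limma (0.0791% and 0.769% of all genes), with 5 members each at an unadjusted p under 0.05, and the bracteal count was 1 without control replicate 3.

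The test of whether the nectary changed more over development than its control called 1 member in floral (1.61%, against 0.441% of all genes) and 1 in circumbracteal tissue (1.61%, against 1.02%), the DXS gene XP_016700779.1 and the GGPPS11 gene LOC107957430. The floral count was 0 without pre-secretory nectary replicate 1, post-secretory nectary replicate 1 or post-secretory control replicate 2. The circumbracteal count was 2 without pre-secretory nectary replicate 1 or 2 or post-secretory nectary replicate 3, and 0 without pre-secretory nectary replicate 3, pre-secretory control replicate 3, post-secretory nectary replicate 2 or post-secretory control replicate 2 or 3. In bracteal and foliar tissue limma called 0 cotton genes of the 62 (0.00452% and 0.136% of all genes), with 3 and 11 members at an unadjusted p under 0.05, and the foliar count was 2 without post-secretory nectary replicate 2.

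**Figure D5:**
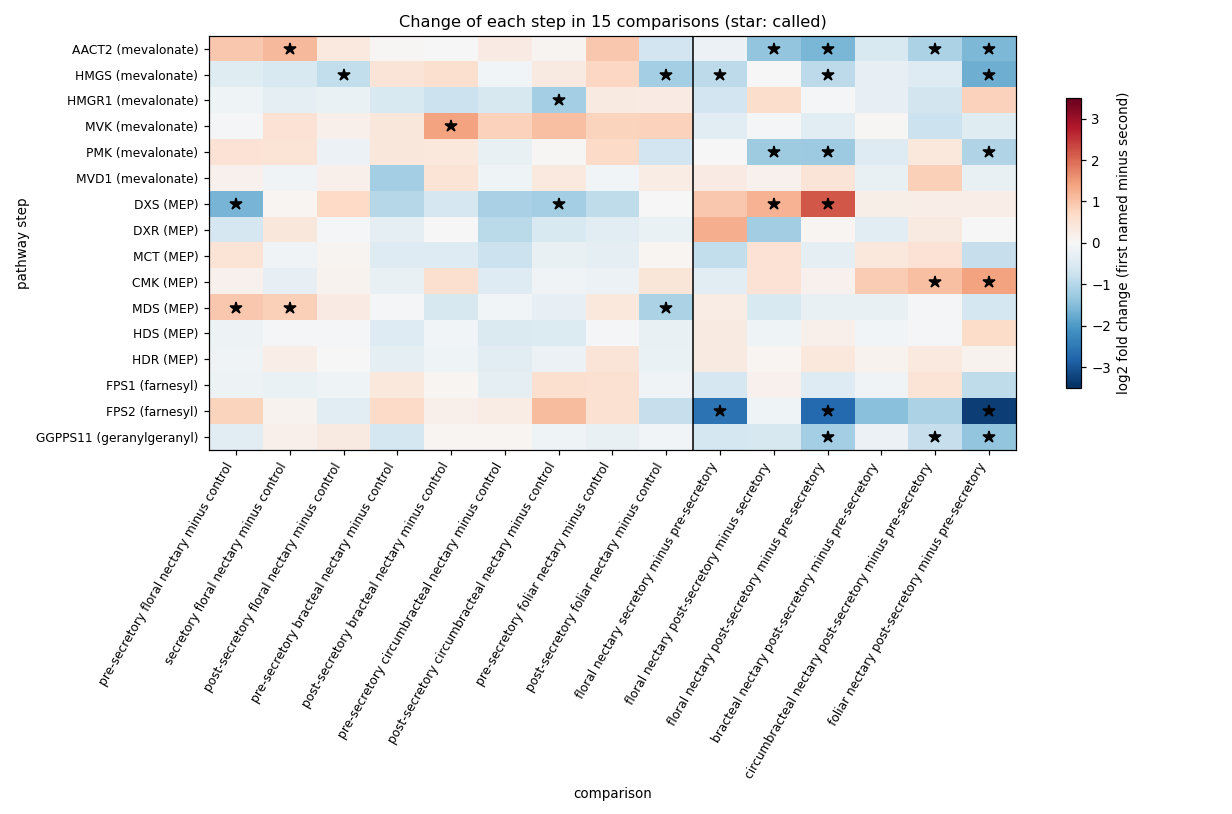
Log2 fold change (colour, first named group minus second) of the 16 steps with an entry in 9 comparisons of nectary with control and 6 between stages of nectaries. A star marks an adjusted p under 0.05 with at least 1.5-fold change; the strongest colours are FPS2 over floral and foliar development and DXS over floral development (2.18).

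Genes downstream and beside the 2 routes were read from lists of Arabidopsis matches. Of 11 sterol genes, all with an entry, 7 fell in foliar nectaries from the pre-secretory to the post-secretory stage, 6 in circumbracteal, 3 in bracteal and 1 in floral nectaries, and none rose. Of all Arabidopsis sums, 13.2% fell in foliar, 13.5% in circumbracteal, 4.57% in bracteal and 5.99% in floral nectaries, and 8.18%, 12.8%, 2.17% and 7.63% rose. For the difference between the nectary and control changes, limma called 0 of the 11 in foliar, circumbracteal and bracteal tissue, with 1, 2 and 0 at an unadjusted p under 0.05 and median differences of -0.13, -0.01 and -0.22. In floral tissue it called 1, CAS1, with the lower change in the nectary. There 3 had an unadjusted p under 0.05 and the median difference was 0.31. DWF1, a sterol reductase, changed by -3.27 in foliar and SMT1, the first sterol methyltransferase, by -2.57, -1.74 and -1.61 in foliar, circumbracteal and bracteal nectaries (limma adjusted p = 9.27e-05 for DWF1, and 3.58e-05, 0.000749 and 0.0144 for SMT1). The list median was -1.59 in foliar and -1.26 in circumbracteal nectaries, where over all Arabidopsis sums tested the median was 0.076 and 0.023. The squalene epoxidase match SQE1 was lower in nectary than in control in all 3 floral stages and both circumbracteal stages, with differences of -0.98 to -1.68, and CAS1, cycloartenol synthase, was higher in pre-secretory and secretory floral nectaries, by 1.58 and 0.95.

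Of 12 genes for plastid isoprenoid products, 11 with an entry, 3 rose and 2 fell in circumbracteal nectaries over development. Phytoene synthase (PSY) and phytoene desaturase (PDS3), the first enzymes of carotenoid synthesis, rose there by 1.62 and 2.52 (limma adjusted p = 0.0109 and 0.000254). Before secretion both were called lower in circumbracteal nectaries than in control. For the difference between the nectary and control changes, limma called 0 of the 11 in circumbracteal tissue, with 2 at an unadjusted p under 0.05. In floral nectaries 2 rose, CHLP, which reduces the geranylgeranyl chain for chlorophyll, and LUT2, an epsilon cyclase, and the beta cyclase LYC fell, with a change of -1.15. In foliar nectaries only CHLP was called among these genes, with -0.88, and in bracteal nectaries limma called 0 of the 11, with 1 at an unadjusted p under 0.05. Of 12 further pathway genes, 6 had an entry. AACT1, the second acetyltransferase, rose in circumbracteal and foliar nectaries by 0.93 and 1.14, where AACT2 fell, and MVD2, the second decarboxylase, changed there by -1.40 and -1.34 (limma adjusted p = 0.0139 and 0.00972 for AACT1, and 0.00145 and 0.00786 for MVD2).

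Markers of dividing cells moved with the falls outside the flower. Of 5 such genes 2 had an entry, and both fell in bracteal and foliar nectaries and 1 in circumbracteal nectaries. Their summed signal was 15.3, 17.3 and 12.8 in post-secretory foliar nectaries, against 753 and 541 before, and 18.4, 45.6 and 18.6 in post-secretory circumbracteal nectaries, against 445, 402 and 890. In floral nectaries it was 23.3 and 13.1 before secretion, 8.00, 13.4 and 23.6 during it and 61.9, 31.1 and 79.3 after it, and there neither marker was called. Among 2 phloem markers, the sucrose transporter SUC2 rose in circumbracteal and foliar nectaries. The part of these cell types in the other changes was not tested.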

How the data were processed

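Whole-number signal per cotton protein entry was deposited by the authors for 51 RNA samples, each sequenced in 2 runs, which were summed here and counted as 1 replicate. In 3011 of 36725 entries examined, values up to 50 in 1 run were rounded multiples of a step above 1, and 98.6% of their values in the other run lay on it (59.2% by chance). Such a step was found in 2 member entries. The table was treated as scaled signal and not as reads, and read depth is unknown. The study's methods name BLASTN against the UTX-JGI genome, while the entries carry RefSeq protein accessions; the scaling and the division of reads among near-identical copies are not given in the sources used here. All value columns were assigned to a sample.

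Isoform entries were joined to cotton genes through the RefSeq table (60 of 71 member entries by accession). Values were upper-quartile normalized, cotton genes and Arabidopsis sums separately, and log2(value + 1) was fitted with limma 3.58.1 in R 4.3.3 (all 51 samples, 1 mean per group, trended prior, Benjamini-Hochberg over all genes tested), keeping genes with at least 10 in at least 2 samples. Fold changes on this scale understate low genes. The fit was tested on simulated data.

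Members and lists were chosen with earlier results of these data known. Named were all steps, the leading cotton gene of each, and up to 5 called genes per comparison with a mean of at least 100 and no overlap. LOC107897938, XP_016733919.1, LOC107943234, LOC107957430 and other genes outside that rule, the pathway balance and the count over 8 series were chosen after values were seen. Same-numbered samples deviated together in 4 comparisons with 3 pairs each (r of 0.168 to 0.34): secretory floral, post-secretory bracteal and post-secretory foliar nectary against control, and post-secretory against secretory floral nectaries. Alternatives were 10 added before the logarithm, median-of-ratios scaling, no filter, only the samples compared, the replicate block and leaving out each sample.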

Additional observations from a re-analysis of the deposited data

Results flagged for a closer look

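Results are listed here where the change in the nectary from the pre-secretory to the post-secretory stage differed from the change in the control tissue beside it, by limma's test of that difference. The DXS sum in floral tissue differed by 2.31 on the log2 scale, and its gene XP_016700779.1 by 2.27, in each case with a rise in the nectary. The HMGS sum in foliar tissue differed by -1.91, with a fall in the nectary. The GGPPS11 gene LOC107957430 in circumbracteal tissue differed by -4.92 on the log2(value + 1) scale and was listed at 0 in all 3 post-secretory nectary samples, so that value depends on the 1 added. No group had the 4 or more samples that a check for single outlying samples needs.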

How the results depend on the processing

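Of 98 called values of named sums and genes, 20 were called under every alternative, 78 lost the call under at least 1, and none changed direction. Median-of-ratios scaling and no filter left every count of called members within 1.5 times of that reported. For the counts that moved, the cause was not tested. Counts under alternative settings, here and above, are of members alone. The share of all genes under each setting is not given, so a moved count cannot be read as particular to the members. With 10 added before the logarithm, the count of nectary against control was 5 in pre-secretory floral, 1 in pre-secretory bracteal, 0 in pre-secretory and 3 in post-secretory circumbracteal tissue, and the nectary change differed from the control change in 0 circumbracteal and 2 foliar members. With only the samples compared in the fit, nectary against control gave 4 in post-secretory floral, 0 in pre-secretory and 1 in post-secretory circumbracteal and 5 in post-secretory foliar tissue. Over stages it gave 2 (floral secretory against pre-secretory), 0 by limma (floral post-secretory against secretory, where 7079 of all genes had an unadjusted p under 0.05) and 3 (circumbracteal), and 0 for the circumbracteal difference of changes.

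With the replicate block, nectary against control gave 9 in secretory and 5 in post-secretory floral, 5 in post-secretory bracteal, and 7 in pre-secretory and 12 in post-secretory circumbracteal tissue, and bracteal post-secretory against pre-secretory nectaries gave 1; other counts stayed within 1.5 times. No paired fit was made for pre-secretory foliar tissue, which shares 1 number, or for the differences of changes.

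Leaving out 1 sample, counts of nectary against control ran over 0 to 2 (floral pre-secretory), 1 to 4 (floral secretory), 1 to 2 (floral post-secretory), 0 to 1 and 1 to 3 (bracteal pre- and post-secretory), 0 to 7 and 2 to 11 (circumbracteal pre- and post-secretory) and 1 to 3 (foliar post-secretory). Over stages they ran over 0 to 6, 0 to 7 and 3 to 11 in floral (secretory against pre-secretory, post-secretory against secretory, post-secretory against pre-secretory), 0 to 1 in bracteal, 9 to 15 in circumbracteal and 3 to 11 in foliar nectaries. For differences of changes they ran over 0 to 1 in floral, 0 to 2 in circumbracteal and 0 to 2 in foliar tissue. Groups of 2, and the 1 foliar secretory nectary and control sample analysed here, limit what these values can separate.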
